A study of Mus musculus with 60 samples.

Results

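Mammary glands of ovariectomized mice given estrogen and progesterone together were set against glands of ovariectomized mice given the oil vehicle alone. The animals were chosen by their titles: every intact gland labelled with both hormones (E+P, 5 animals) and every gland labelled as vehicle treated (V, 4 animals), each read on 3 Affymetrix array types called A, B and C here. These are 27 of the 60 arrays and 9 of the 20 animals of the series. All animals were ovariectomized and were injected into the abdominal cavity every day for 4 days. E+P animals received 2 µg of 17-beta-estrogen with 1 mg of progesterone, and V animals received 100 µl of sesame oil. Progesterone is named in the description field of the V samples, whereas title and treatment protocol give sesame oil; the titles were followed. The other groups were glands of animals given the same dose of estrogen alone (E, 4 animals) or of progesterone alone (P, 4 animals), and epithelium-free fat pads of animals treated with both hormones (E+P CFP, 3 animals). Lymph nodes had been taken out at collection. The titles call the samples biologic replicates, and the design text counts animals; strain and age are not given in the labels used here.

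Estrogen and progesterone act through nuclear receptors that bind DNA, and in the mouse mammary gland both receptors are found in a subset of luminal cells of the ducts. Ovariectomy removes the main source of both hormones, and the ducts become quiescent. Receptor-positive cells are known to signal to their neighbours through secreted factors such as amphiregulin, RANKL (Tnfsf11) and Wnt4, and the 2 hormones together drive cell division and side branching. The gland is embedded in a fat pad of adipocytes, vessels, fibroblasts and immune cells, so an array of the whole gland reads all of these. In such bulk samples fewer cells of a type and less RNA per cell cannot be told apart.

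Values are the authors' signal intensities on a linear scale, scaled within each array type. A probe set was tested when its signal lay above the middle of its array type in at least 3 of the 20 animals, and its log2 signal was compared in a fit over all 5 groups with limma. Signals below a floor, the 25th percentile over an array type, were raised to it before taking log2; the floor was 13.5 on A, 28.5 on B and 19.8 on C. Where some of the lower group's animals sat at the floor, the log2 difference understates the change and is given as "at least". Differences are E+P minus V, given ± the standard error of the fit, and a probe set passed at an adjusted p under 0.05 (Benjamini-Hochberg over all 23055 tested probe sets). A gene is represented by 1 probe set. Signals compare animals for the same probe set; no probe set was set against another.

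The glands held the cells the labels name, with differences between animals that bear on the comparison. The summed signal of 5 luminal markers (Krt8, Krt18, Krt19, Epcam, Elf5) was 3702 to 5784 in E+P glands and 2732 to 3654 in V glands, against 30.7 to 44.1 in the E+P CFP fat pads. Of 4 myoepithelial markers, Krt5 stayed at the floor in every E+P and V animal, and Krt14 in 4 E+P and 3 V glands. The sums overlapped (869 to 1209 in E+P, 588 to 1254 in V). Most of each sum was Acta2, with 782 to 1088 in E+P and 502 to 1136 in V. Acta2 also read 306 to 482 in the fat pads without epithelium, so the sum is not a measure of myoepithelium alone. The summed signal of 3 white adipocyte markers (Adipoq, Fabp4, Lep) was 7661 to 10647 in E+P and 9118 to 11303 in V. Most of each sum was Adipoq, with 6601 to 9158 in E+P and 8311 to 10362 in V. Fabp4 overlapped (293 to 421 and 383 to 405), and Lep was higher in E+P (664 to 1068 and 425 to 597). A lymphocyte and plasma cell score, the mean log2 deviation over 28 genes from their mean over all animals, was -1.27 to 0.67 in the E+P glands and -1.31 to 1.22 in the V glands. Animal V 4 alone held the 1.22, with the other 3 V glands between -1.31 and -1.19, and E+P 2 and E+P 4 stood at 0.67 and 0.62, with the other E+P glands between -1.27 and -1.09. The 3' to 5' signal ratio of the Gapdh control, which grows as RNA degrades, averaged 2.20 ± 0.46 in E+P (SD, n = 5) and 2.41 ± 0.68 in V (SD, n = 4). The exact permutation test of that difference, -0.21, gave a two-sided p of 0.611, where 0.0159 is the smallest that 5 against 4 animals allow. V 4 had a ratio of 3.42 and the other V glands 1.94 to 2.21; without V 4 the difference turned to 0.12 (exact permutation p = 0.679). On array type C, 6 arrays of the E and P groups stood apart from all others along the first principal component, and every E+P and V array lay on the other side.

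Of 23055 probe sets, 107 (0.464%) passed the threshold between E+P and V, 58 (0.252%) of them higher and 49 (0.213%) lower in E+P. Array type A held 64 of them, B 34 and C 9, and 2460 probe sets had an unadjusted p under 0.05. With arrays scaled to a common median the split was 49 higher and 73 lower of 122. At the level of genes, 81 of 12233 (0.662%) passed, 42 (0.343%) higher and 39 (0.319%) lower in E+P. The E+P and V animals did not overlap for 77 of the 81, against 663 (5.42%) of all tested genes; the 4 that overlapped were Pla1a and Hnrnpd among the rises, and Ephx2 and Tmem182 among the falls. Over all tested genes the median log2 difference was 0.02, and 52.8% were higher in E+P. Another tested probe set existed for 30 of the 81 genes, and for 12 of them at least 1 such probe set had the opposite sign. With any 1 E+P or V animal left out 20 of the 81 still passed: Rbp7, Pbk, Btnl9, Wfdc18, Timp4, Gm2a, Ltf, Igfbp2, Slco2a1, Sgms1, Stmn1, Birc5, Rpl13a, Crym, Cdca4, Cdk1, Serpinb11, Egr2, Bcl6b and Ccnb2. Each of the others lost its call without at least 1 animal. The weakest calls were Cyb5b (adjusted p = 0.0498) and Mcm4 (adjusted p = 0.0499), and the nearest genes outside were Esrp1 and Tceal9, both at an adjusted p of 0.0504 by limma.

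**Figure D1:**
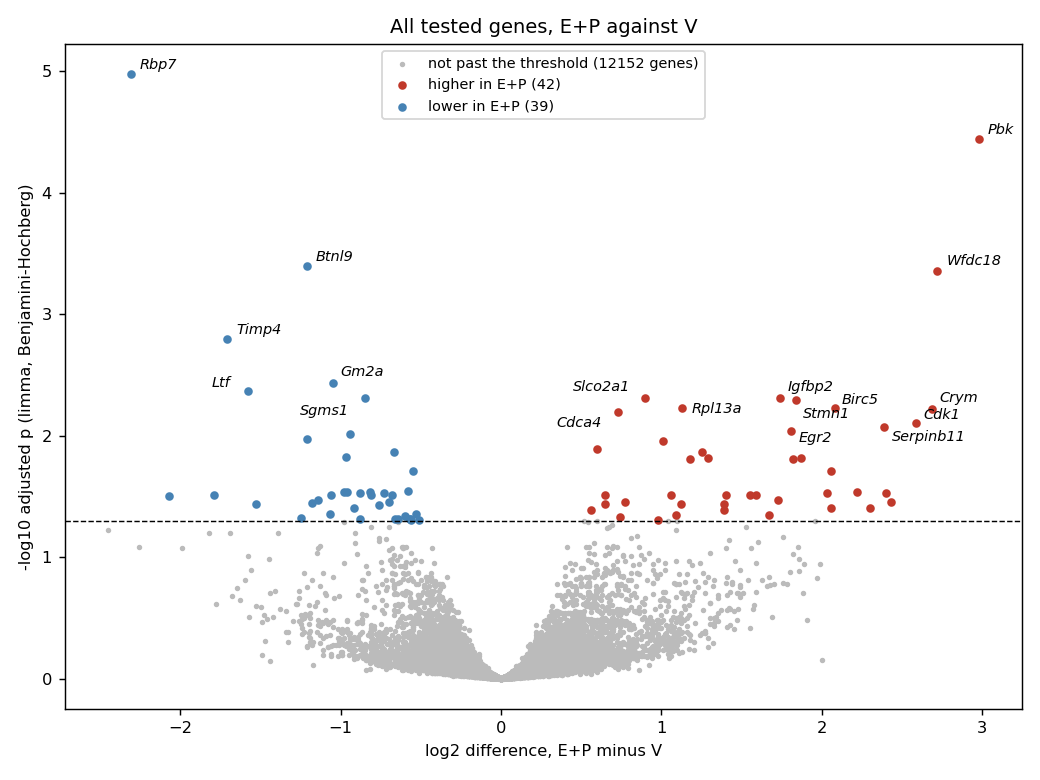
Each point is 1 of the 12233 tested genes, with its log2 difference of E+P minus V on the x axis and −log10 of its adjusted p (limma, Benjamini-Hochberg) on the y axis; the dashed line is the threshold of 0.05. The 42 genes higher in E+P (red) reach 2.98 on the log2 scale at Pbk, and the 39 genes lower in E+P (blue) reach -2.31 at Rbp7.

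Genes of cell division rose in the E+P glands. Of 37 tested members of a list for mitosis and the G2 phase, 10 rose and 0 fell, 36 had a positive difference, and the list's median was 1.09 against 0.02 over all genes. Over all tested genes 0.343% rose, 0.319% fell and 52.8% had a positive difference. The counts of this and every later list are to be read against these shares. The lists were chosen with earlier results of these data known, so their counts are a description and not separate evidence. Pbk, a protein kinase active in mitosis, had signals of 216, 442, 238, 159 and 191 in E+P glands, against 17.1, 21.7, 32 and 29.5 in V glands. Every E+P gland was at least several-fold above every V gland, of which 2 were at the floor. The log2 difference was at least 2.98 (SE 0.32, limma adjusted p = 3.65e-05), and a second probe set of Pbk stood at 0.16 (adjusted p = 0.944).

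Cdk1 is the kinase that drives entry into mitosis. Its signals were 162, 315, 207, 140.4 and 135 in E+P and 11.5, 75.7, 19.7 and 42.1 in V. The groups did not overlap, although the V glands spread widely and 1 was at the floor; the difference was at least 2.59 (SE 0.44, limma adjusted p = 0.00786). Birc5 encodes survivin, a subunit of the chromosomal passenger complex. It had 79.1, 187, 88.4, 73.9 and 55.7 in E+P, against 19.9, 24.2, 16.2 and 24.5 in V, and rose by 2.08 ± 0.34 on the log2 scale (adjusted p = 0.00593). Stmn1, stathmin, destabilizes microtubules. Its signals were 567, 1462, 705, 464 and 633 in E+P and 187, 202, 184 and 217 in V, with the V glands close together and E+P 2 the highest, and it rose by 1.84 ± 0.29 (adjusted p = 0.00506). Mki67, whose protein Ki-67 coats mitotic chromosomes and marks cycling cells, had 186, 410.4, 231, 102 and 130.1 in E+P, against 34.4, 57.6, 35.8 and 58.4 in V. It rose by 2.06 ± 0.39 (adjusted p = 0.0195), and again the groups did not overlap and E+P 2 was highest. Without V 3 Mki67 stood at 1.95 (limma adjusted p = 0.0889), and a second probe set stood at 0.25 with all animals (adjusted p = 0.810).

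The other mitotic genes that rose were the cyclin Ccnb2 (1.01 ± 0.18, adjusted p = 0.0111), the kinetochore gene Cenph (at least 2.22, adjusted p = 0.0292) and the kinesin Kif23 of the central spindle (at least 2.03, adjusted p = 0.0295). The kinesin Kif22 rose by 1.39 ± 0.29 (adjusted p = 0.0365). The spindle checkpoint kinase Bub1b stayed at the floor in every V gland and was at least 3.17-fold higher in E+P (limma adjusted p = 0.0453). Another probe set of Cenph and of Kif23 had the opposite sign. Without E+P 2 the limma adjusted p was 0.112 for Cenph, 0.106 for Kif23, 0.115 for Kif22 and 0.150 for Bub1b. The next members did not pass: the anaphase activator Cdc20 stood at 0.86 (adjusted p = 0.0819), with E+P glands of 189.9 to 366 all above V glands of 98.4 to 163, and the kinase Nek2 at 0.76 (adjusted p = 0.0970) with overlap. Topoisomerase Top2a stood at 1.80 (adjusted p = 0.132), and Plk1 was the member with a negative value, at -0.04 (adjusted p = 0.985).

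Of 30 tested members of a list for DNA replication and nucleotide synthesis, 4 rose and 0 fell, 25 were positive, and the median was 0.76. Uhrf1, which carries DNA methylation through replication, had 176, 206, 138, 143 and 145 in E+P and 38.3, 53.1, 28.9 and 70.1 in V. All E+P glands lay well above all V glands, with a rise of 1.82 ± 0.34 (adjusted p = 0.0157) and a value of 1.61 (adjusted p = 0.0865) without V 3. Thymidine kinase Tk1, with 142 to 309.6 in E+P against 33.2 to 54.6 in V, rose by 2.43 ± 0.51 (limma adjusted p = 0.0349), although 1 of its 4 other tested probe sets had the opposite sign. The ribonucleotide reductase subunit Rrm2 rose by at least 2.30 (adjusted p = 0.0397). Mcm4, a subunit of the replicative helicase, rose by 0.98 ± 0.22 (adjusted p = 0.0499), while its partner Mcm5 stood at 1.53 (adjusted p = 0.0567) and the chromatin assembly factor Chaf1a at 1.85 or more (adjusted p = 0.0821). E+P 2, one of the 2 E+P glands with a high lymphocyte score, was the highest E+P gland for Pbk, Cdk1, Birc5, Stmn1, Mki67 and Uhrf1. E+P 4, the other, was the lowest E+P gland for Pbk, Stmn1 and Mki67. Without E+P 2 Tk1 stood at 2.34 (limma adjusted p = 0.115), and without V 3 Rrm2 at 2.03 or more and Mcm4 at 0.86 (adjusted p = 0.152 and 0.181). Without E+P 2 the mitosis list had 5 rises and a median of 0.93, and the replication list 0 rises and a median of 0.56. Without V 3 the counts were 5 and 0 as well, and without V 4 they were 10 and 5. The mitosis count was 6 without E+P 3, V 1 or V 2, and the replication count was 1 without E+P 1, E+P 3, E+P 5 or V 1 and 2 without V 2. With the lymphocyte score in the fit they were 10 and 5, and the part of lymphocytes in these values was tested no further.

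None of 21 tested members of a list of G1 regulators and cell cycle inhibitors passed, with a median of 0.18. The cyclin Ccnd1 had 237 to 585 in E+P and 239.6 to 389.7 in V, a difference of 0.43 ± 0.20 (limma adjusted p = 0.442). The inhibitor Cdkn1a stood at 0.28 ± 0.37 (adjusted p = 0.865), Myc at 1.11 (adjusted p = 0.138) and Id1 at -0.69 (adjusted p = 0.106). Under median scaling Id1 passed as a fall, at -0.82 (adjusted p = 0.0490). In a list of 20 tested p53 targets 0 passed, with a median of 0.10.

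**Figure D2:**
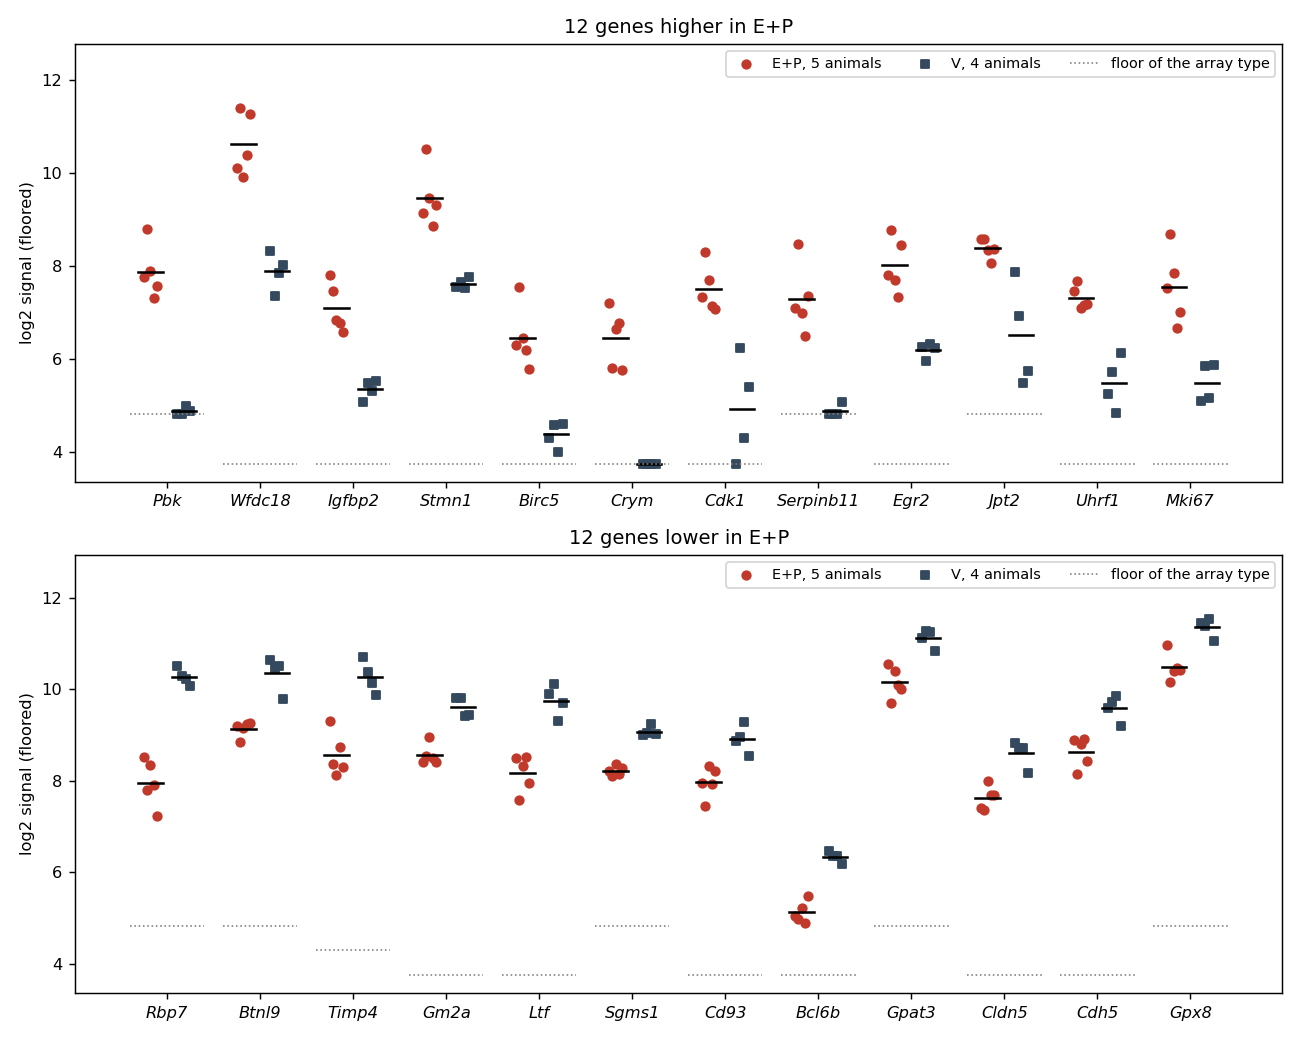
Log2 signal (floored, y axis) of the 12 rises (top) and 12 falls (bottom) with the smallest adjusted p among the largest changes; red circles are the 5 E+P animals, dark squares the 4 V animals, black bars group means and dotted lines the floor of the array type. The genes were taken from those without overlap between E+P and V, so the gaps between the groups are by choice; V animals of Pbk, Crym, Cdk1 and Serpinb11 touch the floor.

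The promoters of the cell cycle genes are shown because they carry letters known from the control of such genes. The CCAAT box and the cell cycle homology region (CHR, TTTGAA) are bound in quiescent and dividing cells by NF-Y and by the DREAM and MuvB complexes, and E2F proteins bind sites of the kind TTCCCGCC. Windows of 250 bases before to 50 bases after the RefSeq start of each gene (GRCm38.p6, first start listed) were searched on both strands for these letters; 64 of the 81 called genes had an entry. Of the 14 called cell cycle genes, 11 had one, and CCAAT was in 9 (81.8%), TTTGAA in 6 (54.5%) and TTCCCGCC in 2 (18.2%). Over 27025 genes the shares were 37.9%, 18.1% and 2.24%, and over 30 called falls 33.3%, 6.67% and 6.67%. Palindromic response elements of the estrogen receptor and of the progesterone receptor were in 0 windows of called genes and in 0.0666% and 0.0481% of all windows. A match is a description of the letters and not a bound site. The 150 bases before the start follow for the 5 cell cycle genes and the 3 falls with the smallest adjusted p among the largest changes that had an entry, 5′ to 3′ on the strand of the gene, with capitals marking these 3 motifs on either strand. Birc5 lies at chr11:117849087-117849236 on the plus strand and Cdk1 lies at chr10:69352913-69353062 on the minus strand. Uhrf1 lies at chr17:56303187-56303336 on the plus strand and Mki67 lies at chr7:135716380-135716529 on the minus strand. Cenph lies at chr13:100775900-100776049 on the minus strand and Rbp7 lies at chr4:149454969-149455118 on the minus strand. Btnl9 lies at chr11:49187090-49187239 on the minus strand and Timp4 lies at chr6:115252206-115252355 on the minus strand. Cdk1 shows 2 CCAAT boxes and 2 TTTGAA elements, Mki67 1 and 2, and Uhrf1 1 E2F site with 1 CCAAT box. Birc5 and Cenph show none in these bases, although Cenph has a CCAAT box and an E2F site after the start. Of the falls, Btnl9 shows 1 CCAAT box, and Rbp7 and Timp4 show none.
Birc5: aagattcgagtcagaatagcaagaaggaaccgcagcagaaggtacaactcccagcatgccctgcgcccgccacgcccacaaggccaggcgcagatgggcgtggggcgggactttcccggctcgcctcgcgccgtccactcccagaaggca
Cdk1: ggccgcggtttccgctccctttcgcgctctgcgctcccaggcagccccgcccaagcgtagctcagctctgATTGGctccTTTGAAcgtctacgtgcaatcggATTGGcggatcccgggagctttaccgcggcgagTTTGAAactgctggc
Uhrf1: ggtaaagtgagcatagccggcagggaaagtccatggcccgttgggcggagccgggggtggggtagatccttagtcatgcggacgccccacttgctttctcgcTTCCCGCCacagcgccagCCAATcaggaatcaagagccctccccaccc
Mki67: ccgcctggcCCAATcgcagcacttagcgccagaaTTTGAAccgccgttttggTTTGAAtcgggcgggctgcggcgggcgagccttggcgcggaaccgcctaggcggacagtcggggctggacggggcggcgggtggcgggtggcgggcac
Cenph: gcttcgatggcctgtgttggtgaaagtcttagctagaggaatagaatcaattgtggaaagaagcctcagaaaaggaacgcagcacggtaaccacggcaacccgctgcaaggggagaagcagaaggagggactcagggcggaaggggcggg
Rbp7: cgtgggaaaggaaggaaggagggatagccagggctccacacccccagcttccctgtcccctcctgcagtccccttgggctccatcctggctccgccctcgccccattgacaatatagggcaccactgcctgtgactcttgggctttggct
Btnl9: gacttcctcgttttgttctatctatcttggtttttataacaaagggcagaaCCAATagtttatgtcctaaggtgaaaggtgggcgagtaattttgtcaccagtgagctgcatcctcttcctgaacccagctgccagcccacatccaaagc
Timp4: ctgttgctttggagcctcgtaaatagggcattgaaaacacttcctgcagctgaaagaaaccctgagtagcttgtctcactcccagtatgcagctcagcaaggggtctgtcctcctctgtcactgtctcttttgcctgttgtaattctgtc

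Luminal epithelial genes leaned higher in E+P glands, and the secreted protein Wfdc18 had the largest rise among them. Of 28 tested luminal genes 3 rose and 0 fell, 25 were positive, and the median was 0.52. Over all genes 0.343% rose and 52.8% were positive. Wfdc18, a secreted protein of the whey acidic protein family, had 1105, 2672, 961, 1337 and 2445 in E+P glands and 319, 163, 232 and 260.4 in V glands. The groups lay far apart, with a rise of 2.72 ± 0.33 (limma adjusted p = 0.000438), that is 6.59-fold. Muc15, a membrane mucin, rose by 1.73 ± 0.37 (adjusted p = 0.0339), with 179.7 to 505 in E+P against 76.6 to 149 in V. Ehf, an epithelial transcription factor of the ETS family, rose by 1.55 ± 0.32 (adjusted p = 0.0309). Without V 3 Muc15 stood at 1.59 and Ehf at 1.45 (limma adjusted p = 0.132 and 0.130). Without E+P 2, E+P 3, E+P 5, V 2 or V 3 the luminal count was 1, and without E+P 4 it was 6.

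The luminal keratins did not pass. Krt8 had 945 to 1643 in E+P and 633 to 809.7 in V with no overlap (0.81 ± 0.19, adjusted p = 0.0696). Krt19 likewise stood apart, with 966 to 1855 in E+P against 672 to 916 in V (0.85 ± 0.20, adjusted p = 0.0667). Krt18 overlapped, at 0.39 ± 0.17 (adjusted p = 0.406), and the splicing regulator Esrp1 stood at 1.04 (limma adjusted p = 0.0504). Epcam, an adhesion protein of all luminal cells, stood at -0.02 (adjusted p = 0.983), and Elf5, a transcription factor of the alveolar lineage, at 0.44 ± 0.20 (adjusted p = 0.435). Krt8, Krt18, Krt19, Epcam and Elf5 make up the luminal marker sum, so that sum is not separate from them. Whether the luminal differences go with more luminal cells was not tested.

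Among 22 tested genes of epithelial junctions and channels, with a median of 0.43, Gjb2 rose. It encodes connexin 26, a gap junction protein, and had 99.5, 382, 119.8, 79.1 and 307 in E+P and 31.5, 41.6, 5.30 and 50 in V, with 1 V gland at the floor. The difference was at least 2.40 (limma adjusted p = 0.0295), and at least 2.00 (adjusted p = 0.130) without V 3. The claudins Cldn3 and Cldn7 stood at 0.99 and 0.75 (adjusted p = 0.138 and 0.207), each with every E+P gland above every V gland. Of 14 tested basal and myoepithelial genes 0 passed, with a median of 0.37; the laminin chain Lamb3 stood at 1.68 (adjusted p = 0.169) and Tagln at 0.70 (adjusted p = 0.289). Krt14 was too dim to be tested.

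Milk and secreted proteins moved in both directions: of 16 tested, Wfdc18 rose while Ltf and Btn1a1 fell, and the median was -0.12. Ltf, lactoferrin, is an iron-binding protein of milk and of neutrophils. Its signals were 361, 192, 319.9, 366 and 248 in E+P, against 957, 1111, 632 and 827 in V, and every E+P gland was below every V gland. It fell by 1.58 ± 0.24 on the log2 scale (limma adjusted p = 0.00429). Btn1a1, butyrophilin of the milk fat globule membrane, had 94.3, 25.5, 147, 68.0 and 30.8 in E+P and 552, 261, 179 and 153 in V. E+P 3 came close to the lowest V gland; the fall was 2.07 (SE 0.43, adjusted p = 0.0314), and without V 1, the highest, the difference was -1.69 (adjusted p = 0.109). Lalba, alpha-lactalbumin, stayed at the floor in every E+P gland and had 103, 120.3, 81.1 and 17.4 in V, at least 4.79-fold lower (adjusted p = 0.0821). Csn2 and Wap, the beta-casein and whey acidic protein genes, were too dim to be tested, with highest signals of 30.2 and 10.5 in E+P and 33.5 and 8.20 in V.

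Of the ligands and receptors by which mammary cells signal to each other, 1 of 31 tested rose, and the median was 0.22. Igfbp2, a binding protein of insulin-like growth factors, had 223, 177, 114, 109 and 96.4 in E+P and 33.9, 44.7, 40 and 46.0 in V. The lowest E+P gland was above the highest V gland by more than the whole spread of V, and the rise was 1.74 ± 0.28 (adjusted p = 0.00495); a second probe set stood at -0.64 (adjusted p = 0.702). Tgfa, a ligand of the EGF receptor, had 68.0 to 99.3 in E+P and 8.60 to 41.8 in V, a difference of at least 1.76 (limma adjusted p = 0.0685). Wnt4, a progesterone target of the mammary epithelium, had 342 to 755 in E+P and 321 to 735 in V, and stood at 0.22 ± 0.24 (adjusted p = 0.825). Tnfsf11, which encodes RANKL, was too dim to be tested; its highest signal was 58.6 in E+P and 17.2 in V, with 2 of 5 E+P and 3 of 4 V glands at the floor.

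The receptors themselves gave no call. Esr1, the estrogen receptor gene, had 544 to 918 in E+P and 553 to 958 in V, a difference of -0.24 ± 0.19 (adjusted p = 0.721). Pgr, the progesterone receptor gene, was too dim, with at most 37.0 in E+P and 23.7 in V, as was the estrogen target Greb1, with at most 126 in E+P and 60.0 in V. Of 18 tested steroid receptors and receptor targets 0 passed, with a median of -0.10. Fkbp5, a cochaperone of steroid receptors, stood at 0.66 (adjusted p = 0.412), and Myb at -0.62 (adjusted p = 0.378). Areg and Prlr were not analysed here.

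The immediate early genes Egr2 and Egr1 rose, as 2 of 31 tested genes of the early and stress response with a median of 0.26. Over all genes 0.343% rose. Egr2, a zinc finger transcription factor, had 224, 439.5, 208, 162 and 348 in E+P and 77.1, 62.7, 80.5 and 75.6 in V. The V glands lay close together and far below every E+P gland, with a rise of 1.81 ± 0.31 (adjusted p = 0.00925). Egr1 rose by 1.06 ± 0.21 (limma adjusted p = 0.0309), with 171 to 302 in E+P against 67.9 to 155 in V. It kept its call in 3 of the 9 fits that left out 1 animal and stood at 0.80 (adjusted p = 0.129) without V 3. Egr3 stood at 1.33 (adjusted p = 0.155) and Klf4 at -0.68 (adjusted p = 0.155).

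Of the remaining large rises, Crym had 148, 56.4, 101, 109 and 54.9 in E+P, while all 4 V glands were at the floor. Crym binds thyroid hormone and reduces ketimines; it was at least 6.46-fold higher in E+P (limma adjusted p = 0.00601). Serpinb11, of the serine protease inhibitor family, had 137, 356, 127, 90.7 and 163 in E+P and 14.2, 16.4, 10.8 and 33.7 in V, with 3 V glands at the floor. The difference was at least 2.39 (adjusted p = 0.00843). Jpt2, which binds the calcium messenger NAADP, had 382, 380.1, 324, 269 and 328 in E+P and 236, 121, 44.9 and 53.9 in V. Its V glands spread widely without reaching E+P; the rise was 1.87 ± 0.35 (adjusted p = 0.0153), and of 2 further probe sets 1 stood at 0.70 (adjusted p = 0.155) and 1 at -0.21 (adjusted p = 0.823). Without V 3 Jpt2 stood at 1.53 (limma adjusted p = 0.0875). Lrrc15, a leucine-rich repeat membrane protein, had 345 to 553 in E+P against 66.4 to 243 in V (2.06 ± 0.45, adjusted p = 0.0397). V 3 alone held the 243, and without V 1 the value was 1.87 (adjusted p = 0.120).

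Falls were led by genes of vascular endothelium. Of 35 tested endothelial genes 7 fell and 0 rose, 27 were negative, and the median was -0.31 against 0.02 over all genes. This list too was chosen with earlier results of these data known. Over all genes 0.319% fell and 52.8% were positive. Rbp7, a retinol-binding protein of the endothelium of fat, had 369.9, 222, 324, 241 and 151 in E+P and 1457, 1258, 1196 and 1075 in V. The highest E+P gland lay far below the lowest V gland, and the fall of 2.31 ± 0.22 on the log2 scale (limma adjusted p = 1.06e-05), 4.97-fold, had the smallest p of all genes. Btnl9, a butyrophilin-like membrane protein, had 584, 462, 574, 607 and 618 in E+P and 1608, 1392, 1465 and 887 in V. V 4 was the lowest V gland and still above every E+P gland; Btnl9 fell by 1.21 ± 0.15 (adjusted p = 0.000403), and another probe set stood at 0.34 (adjusted p = 0.870).

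Cd93, a receptor of endothelial adhesion, had 247, 176, 321, 243 and 299 in E+P and 468, 499, 622 and 373 in V, and fell by 0.94 ± 0.16 (adjusted p = 0.00967). Bcl6b, a transcriptional repressor, had 33.3, 31.8, 37.5, 29.7 and 44.8 in E+P and 88.4, 82.6, 82.0 and 72.9 in V, and fell by 1.21 ± 0.21 (adjusted p = 0.0107). Other tested probe sets of Bcl6b stood at -0.58 and 0.08 (limma adjusted p = 0.802 and 0.979). Cldn5, the claudin of endothelial tight junctions, had 169, 164, 257, 208 and 206 in E+P and 453, 420.5, 423 and 289.8 in V, and fell by 0.98 ± 0.19 (limma adjusted p = 0.0292). In all 3 the groups did not overlap, and V 4 was the lowest V gland. Cdh5, the vascular cadherin, had 474, 283, 447, 486 and 344 in E+P and 776, 845, 925 and 588 in V, again with V 4 lowest, and fell by 0.96 ± 0.19 (adjusted p = 0.0292). Clic5, a chloride channel family protein, fell by at least 1.53 (adjusted p = 0.0368). Without V 3 the limma adjusted p was 0.0603 for Cd93, 0.108 for Cldn5, 0.130 for Cdh5 and 0.152 for Clic5, at -0.81, -0.94, -0.87 and -1.38.

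The other members of the endothelial list gave no call. Pecam1 stood at 0.28 (adjusted p = 0.788), the receptor Kdr at -0.30 (adjusted p = 0.742), Tie1 at -0.14 (adjusted p = 0.919) and Plvap at 0.08 (adjusted p = 0.949). The lipoprotein lipase anchor Gpihbp1 had 1041 to 1299 in E+P, against 1379.8 to 2078 in V (-0.56, adjusted p = 0.148), and the guidance receptor Robo4 stood at -0.63 (limma adjusted p = 0.119). The summed signal of 4 endothelial markers (Pecam1, Cdh5, Cldn5, Tie1) was 716 to 978 in E+P glands and 1095 to 1566 in V glands. Cdh5 and Cldn5 are in this sum and also among the falls, and whether the falls go with fewer endothelial cells was not tested. The endothelial count was 4 without E+P 2, E+P 5, V 1 or V 2, 3 without V 3, and 9 without V 4.

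Further falls belonged to other cell functions. Timp4, an inhibitor of metalloproteinases found in fat, had 635, 332, 279, 426 and 316 in E+P and 1682, 1327, 1136 and 945 in V. It fell by 1.71 ± 0.24 (adjusted p = 0.00161) with no overlap, as 1 of 18 tested proteinase and inhibitor genes with a median of 0.01; Timp3 stood at -0.44 (adjusted p = 0.136). Gm2a, the lysosomal activator of ganglioside breakdown, had 340.2, 371, 501, 362 and 342 in E+P and 894, 894, 686 and 694 in V. E+P 3 was the highest E+P gland and still below V, and Gm2a fell by 1.05 ± 0.15 (limma adjusted p = 0.00368). Sgms1, a sphingomyelin synthase, had 296, 277, 331, 284 and 311 in E+P and 513, 527, 609.9 and 519 in V. Both groups were tight, with a fall of 0.85 ± 0.14 (adjusted p = 0.00495), although 1 of 2 other probe sets had the opposite sign. Gpat3, an acyltransferase of triglyceride synthesis, had 1494, 835, 1351, 1096 and 1026 in E+P and 2231, 2471, 2442 and 1820.2 in V, and fell by 0.97 ± 0.18 (adjusted p = 0.0150). Gpx8, a peroxidase of the endoplasmic reticulum, had 1992, 1139, 1348, 1425 and 1373 in E+P and 2807, 2668, 2984 and 2131 in V, and fell by 0.88 ± 0.18 (adjusted p = 0.0295). For both genes V 4 was the lowest V gland and the groups did not overlap; without V 3 Gpat3 stood at -0.92 and Gpx8 at -0.82 (limma adjusted p = 0.0781 and 0.130). Gpx8 was the single call among 26 tested genes of glutathione and peroxide metabolism, with a median of -0.11; Prdx4 and Gpx3 stood at 0.69 and 0.68 (adjusted p = 0.0546 and 0.136).

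The kinesin-like gene Kif26a did not leave the floor in any E+P gland and had 79.5 to 119.6 in V, at least 3.45-fold lower (limma adjusted p = 0.0308). Nrxn3, a synaptic adhesion gene, fell by 1.14 ± 0.24 (adjusted p = 0.0339), and a second probe set, on array type C, passed as well at -2.66 (adjusted p = 0.0469). Penk, the enkephalin precursor, fell by 1.07 ± 0.23 (adjusted p = 0.0444), and Clic4 by 0.92 ± 0.20 (adjusted p = 0.0397). Other probe sets of Clic4 stood at -0.02 and -0.20 (limma adjusted p = 0.986 and 0.685). Nr1d1, the clock repressor REV-ERB alpha, had 93.0 to 178 in E+P and 199.5 to 434 in V, and fell by 1.06 ± 0.21 (adjusted p = 0.0308). It was 1 of 21 tested clock genes, whose median was -0.16; Noct stood at -0.68 (adjusted p = 0.136) and Csnk1e at 0.93 (adjusted p = 0.352). Without V 3 Nr1d1 stood at -0.87 and Clic4 at -0.89 (limma adjusted p = 0.130 for both), and without V 2 Penk at -1.01 (adjusted p = 0.137). Without E+P 2 Kif26a and Nrxn3 had adjusted p-values of 0.0921 and 0.115.

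Most white adipocyte genes lay lower in E+P glands by small amounts. Of 24 tested white adipocyte genes 1 fell, 21 were negative and the median was -0.32. Over all genes 0.319% fell and 52.8% were positive. Adipor2, a receptor of adiponectin, fell by 0.70 ± 0.15 (adjusted p = 0.0349), and another probe set stood at -0.04 (adjusted p = 0.968). The fatty acid carrier Cd36 had 124 to 227 in E+P and 246 to 351 in V (-0.98, adjusted p = 0.0518), and Lpl, lipoprotein lipase, stood at -0.61 (limma adjusted p = 0.0821), with another probe set at 0.24. Adipoq, adiponectin, had 6601 to 9158 in E+P and 8311 to 10362 in V, a difference of -0.29 ± 0.14 (adjusted p = 0.444). Lep, leptin, went the other way at 0.70 (limma adjusted p = 0.128), with 664 to 1068 in E+P all above 425 to 597 in V. In this list 4 genes had every E+P gland below every V gland, and 2 had every E+P gland above. Over all genes the groups did not overlap for 5.42%. Without V 3 Adipor2 stood at -0.66 and Cidea at -1.02 (limma adjusted p = 0.130 and 0.152). Of 9 tested brown adipocyte genes Cidea, a lipid droplet protein, fell by 1.18 ± 0.25 (adjusted p = 0.0358); the median was -0.14, and Cox8b stood at -0.60 (adjusted p = 0.138), with a second probe set that passed at -0.84 (adjusted p = 0.0308).

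Oxidative phosphorylation and the ribosome leaned in opposite directions with little passing the test. Over all genes 52.8% were positive. Of 49 tested oxidative phosphorylation genes 0 passed and 45 were negative, with a median of -0.23; Sdhd stood at -0.52 (adjusted p = 0.133) and Cox6a1 at -0.43 (adjusted p = 0.245). Of 33 tested cytosolic ribosomal protein genes 31 were positive, with a median of 0.24, and Rpl13a rose. It had 356 to 605 in E+P and 176 to 264 in V, a rise of 1.13 ± 0.19 (limma adjusted p = 0.00593), while Rpl10a stood at 0.52 (adjusted p = 0.0509). Under median scaling the 2 medians were -0.36 and 0.12, so their directions held and their sizes depended on the scaling. Ribosomal protein genes have many processed copies in the genome, and probe sets for them can be shared between copies.

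**Figure D3:**
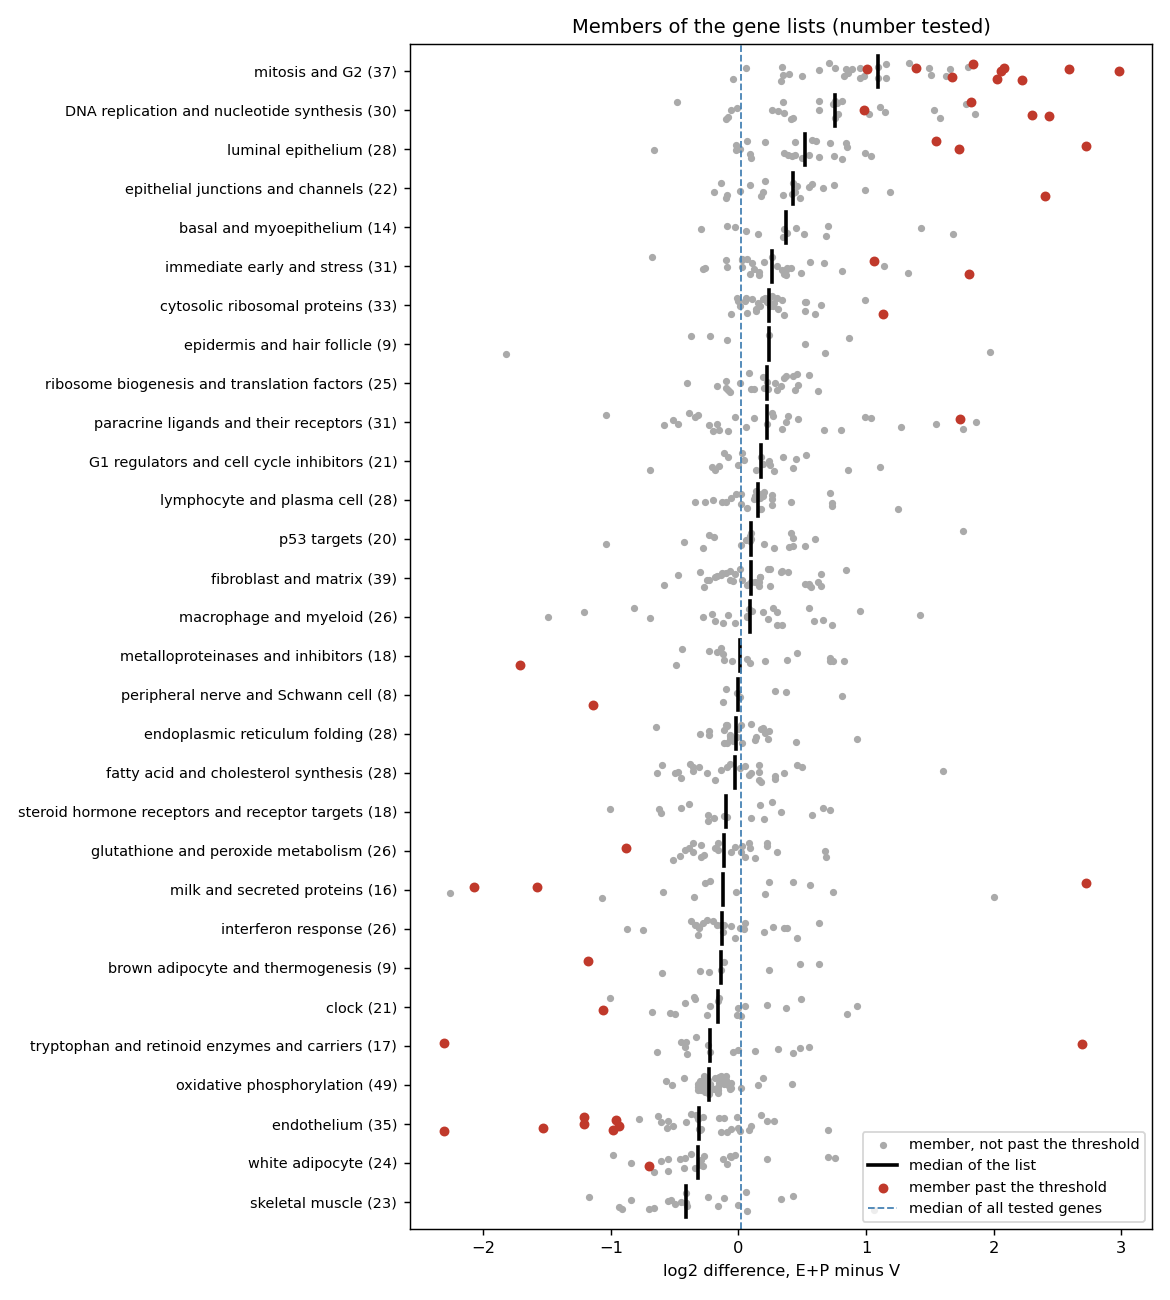
Log2 difference of E+P minus V (x axis) for the tested members of 30 gene lists (rows, with the number tested), red where the member passed the threshold and grey where it did not; black bars are list medians and the dashed line is the median of all tested genes, 0.02. Mitosis (1.09) and replication (0.76) have the highest medians, and endothelium (-0.31), white adipocyte (-0.32) and skeletal muscle (-0.41) the lowest.

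Lists for fibroblasts, macrophages, lymphocytes, skeletal muscle and epidermis gave no call. The medians were 0.10 for 39 fibroblast and matrix genes, 0.09 for 26 macrophage and myeloid genes, 0.15 for 28 lymphocyte and plasma cell genes, -0.41 for 23 skeletal muscle genes and 0.24 for 9 epidermal genes. The smallest adjusted p in each belonged to Thy1 (0.84, adjusted p = 0.279), Cd209a (at least 1.42, adjusted p = 0.261), Cd4 (1.25, adjusted p = 0.424), Tpm2 (1.06, adjusted p = 0.327) and Krt1 (-1.82 or lower, adjusted p = 0.0629). The summed muscle markers were 166 to 489 in E+P and 150.1 to 692 in V. Of 8 peripheral nerve genes Nrxn3 fell, and the median was 0.00; Ncam1 and Sox10 stood at 0.81 (or more) and 0.29 (adjusted p = 0.389 and 0.574).

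No gene passed among 28 of fatty acid and cholesterol synthesis (median -0.03), 26 of the interferon response (-0.13), 28 of endoplasmic reticulum folding (-0.02) or 25 of ribosome biogenesis and translation (0.22). Among them Mvd of the mevalonate pathway stood at 1.60 or more (adjusted p = 0.0755), Cxcl9 at -0.87 (adjusted p = 0.292), Pdia3 at 0.45 (adjusted p = 0.404) and Fbl at 0.55 (adjusted p = 0.168). Of 17 tested genes in a list of tryptophan and retinoid enzymes and carriers, with a median of -0.22, Crym rose and Rbp7 fell. Crym, which binds thyroid hormone, was placed in this list but is not a tryptophan or retinoid gene. The retinol carrier Rbp4 stood at -0.42 (adjusted p = 0.388) and the dehydrogenase Rdh10 at 0.43 (adjusted p = 0.200).

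A further 34 called genes were neither in a list nor among the 20 largest rises and 20 largest falls without overlap, and they complete the 81. Ephx2 and Tmem182 are among them because their groups overlapped, not for the size of their falls. The strongest was Slco2a1, a prostaglandin transporter, with 518 to 692 in E+P and 259.7 to 414 in V, a rise of 0.90 ± 0.15 (adjusted p = 0.00495). Cdca4, a cell division cycle associated gene, rose by 0.73 ± 0.12 (limma adjusted p = 0.00644, another probe set -0.07), and the selenoprotein gene Selenoh by 0.60 ± 0.11 (adjusted p = 0.0129). The collagens Col16a1 and Col7a1 rose by 1.18 and 1.09 (adjusted p = 0.0157 and 0.0453), and Igsf9, an adhesion protein, by 1.25 (adjusted p = 0.0137). The transcription regulators Etv5 (at least 1.39, adjusted p = 0.0412), Nfix (0.77, adjusted p = 0.0350) and Lmo4 (0.65, adjusted p = 0.0368) rose, as did the signalling adaptor Gab1 (1.12, adjusted p = 0.0368). Etv5 lost its call in each of the 9 fits that left out 1 animal, with a limma adjusted p of up to 0.115. The peptide transporter Slc15a2 rose by 1.4 (adjusted p = 0.0309), and Pla1a, a phospholipase whose groups overlapped, by 1.29 (adjusted p = 0.0153). The other rises were Smyd5 (1.59), Hnrnpd (0.74), Mpzl1 (0.65) and Tspan5 (0.56), with adjusted p-values of 0.0310, 0.0472, 0.0308 and 0.0412. Of 3 further probe sets of Smyd5, 2 had the opposite sign.

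Among these 34 the falls were between -0.51 and -1.25. Ephx2, the soluble epoxide hydrolase, fell by 1.25 (adjusted p = 0.0478), with overlap and a value of -1.05 (adjusted p = 0.146) without V 1. Fabp5, a fatty acid carrier, fell by 0.81 (limma adjusted p = 0.0309), the mitochondrial gene Chchd10 by 0.68 (adjusted p = 0.0309), and Sox7, a transcription factor of endothelium, by 0.64 (adjusted p = 0.0486). The remaining falls were Tmem182 (-0.88), Septin4 (-0.82), C9orf72 (-0.76), Tent5a (-0.73), Rflnb (-0.67), Ndrg2 (-0.66), Tmem135 (-0.60), Gpr146 (-0.58), Trp53i11 (-0.57), Zfand6 (-0.57), Cyb5b (-0.56), Snrk (-0.55), Itpkb (-0.53) and Dram1 (-0.51). Their adjusted p-values lay between 0.0137 for Rflnb and 0.0498 for Cyb5b. A further probe set of Snrk (0.23) and of Itpkb (0.47) had the opposite sign.

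The same E+P glands were also set against the glands given 1 hormone and against the fat pads without epithelium. These comparisons share the E+P animals with the one above, so they are not independent of it. The genes named below were picked by E+P against V, which favours a difference from the other groups too. Against E, 33 probe sets (0.143%) passed, 17 higher and 16 lower in E+P; against P, 83 (0.360%) passed, 64 higher and 19 lower; and against E+P CFP, 1821 (7.90%) passed, 1208 higher and 613 lower. Array type C, on which 3 of 4 E and 3 of 4 P arrays stood apart, held 6 of the 33 and 13 of the 83.

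Wfdc18 averaged 10.61 ± 0.67 on the log2 scale in E+P (SD, n = 5), with 8.53 ± 0.78 in E, 8.49 ± 0.44 in P, 5.68 ± 0.08 in E+P CFP and 7.89 ± 0.40 in V. It was higher in E+P than in E by 2.08 (limma adjusted p = 0.0106) and than in P by 2.12 (adjusted p = 0.00650). Rbp7 averaged 7.96 ± 0.51 in E+P, with 9.56 ± 0.44 in E, 9.50 ± 0.22 in P, 9.07 ± 0.31 in E+P CFP and 10.27 ± 0.18 in V. It was lower in E+P in each case, with differences of -1.60 from E (adjusted p = 0.00623), -1.54 from P (adjusted p = 0.00229) and -1.11 from the fat pads (adjusted p = 0.00430). Btnl9 and Nr1d1 were also lower in E+P than in either single hormone group. The differences from E and P were -0.82 and -0.73 for Btnl9 (adjusted p = 0.0197 and 0.0339) and -1.18 and -1.14 for Nr1d1 (adjusted p = 0.0225 and 0.0202). The other falls of the endothelial list were called against neither E nor P. Against E, Cdh5 stood at -0.06, Cldn5 at 0.21, Cd93 at 0.16, Bcl6b at -0.34 and Clic5 at -0.59 (limma adjusted p from 0.583 to 0.953). Against P they stood at -0.62, -0.07, -0.51, -0.76 and -1.14 in that order (limma adjusted p from 0.126 to 0.933).

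Other genes passed the test against 1 of the single hormone groups. Ltf averaged 8.17 ± 0.40 in E+P, 9.64 ± 0.42 in E and 8.63 ± 0.36 in P, with a difference of -1.46 from E (limma adjusted p = 0.0170) and of -0.46 from P (adjusted p = 0.502). Timp4 averaged 8.57 ± 0.47 in E+P, 9.72 ± 0.25 in E and 10.48 ± 0.52 in P; the difference was -1.91 from P (adjusted p = 0.00103) and -1.15 from E (adjusted p = 0.0537). The Timp4 probe set is on array type C; E 1 and P 4, whose type C arrays did not stand apart, had signals of 1011 and 2293, and the others 669 to 876 in E and 956 to 1433 in P. Lmo4 and Gab1 were higher in E+P than in E by 0.89 and 1.55 (adjusted p = 0.00978 for both), and stood at 0.41 and 1.03 against P (adjusted p = 0.214 and 0.0639). Whether the E+P difference from E and from P differed was not tested.

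Of the 14 cell cycle genes called against V, 4 were higher in E+P than in P by the test and 0 were called against E. The 14 were picked with the same E+P animals, so these counts are not separate evidence. Pbk averaged 7.87 ± 0.56 in E+P, 7.13 ± 0.22 in E, 5.41 ± 0.68 in P, 4.96 ± 0.21 in E+P CFP and 4.89 ± 0.08 in V. It stood at 0.73 against E (adjusted p = 0.427) and was higher than in P by at least 2.45, with 2 P glands at the floor (limma adjusted p = 0.00103). Uhrf1 was higher in E+P than in P by 2.37 (adjusted p = 0.00232) and stood at 0.50 against E (adjusted p = 0.684), and Stmn1 was higher by 1.56 (adjusted p = 0.0202) and stood at 1.04 (adjusted p = 0.224). Ccnb2 was higher than in P by 0.94 (adjusted p = 0.0205), whereas Cdk1 and Mki67 stood at 1.74 and 1.69 against P (adjusted p = 0.0881 and 0.0645) and at 0.83 and 0.63 against E (adjusted p = 0.552 and 0.643). Against the fat pads of animals given the same hormones, Cdk1 was higher in E+P glands by 2.96 (adjusted p = 0.000287) and Mki67 by 2.74 (adjusted p = 0.000200).

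Genes that fell against V lay on both sides of the fat pads. Ltf and Btn1a1 were higher in E+P glands than in fat pads by at least 3.90 and 2.14, with 1 and 3 of the 3 fat pads at the floor (adjusted p = 1.68e-09 and 0.00508), while the endothelial Cdh5 and Cd93 were lower, at -1.12 and -0.62 (adjusted p = 0.00131 and 0.0320). Cldn5 and Cidea gave no call against the fat pads (-0.35 and -0.04, adjusted p = 0.380 and 0.960), and Egr2 stood at 0.39 against them (limma adjusted p = 0.592). Skeletal muscle markers summed to 166 to 489 in E+P glands and 2393 to 3273 in the fat pads, so the groups differed in more than epithelium.

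**Figure D4:**
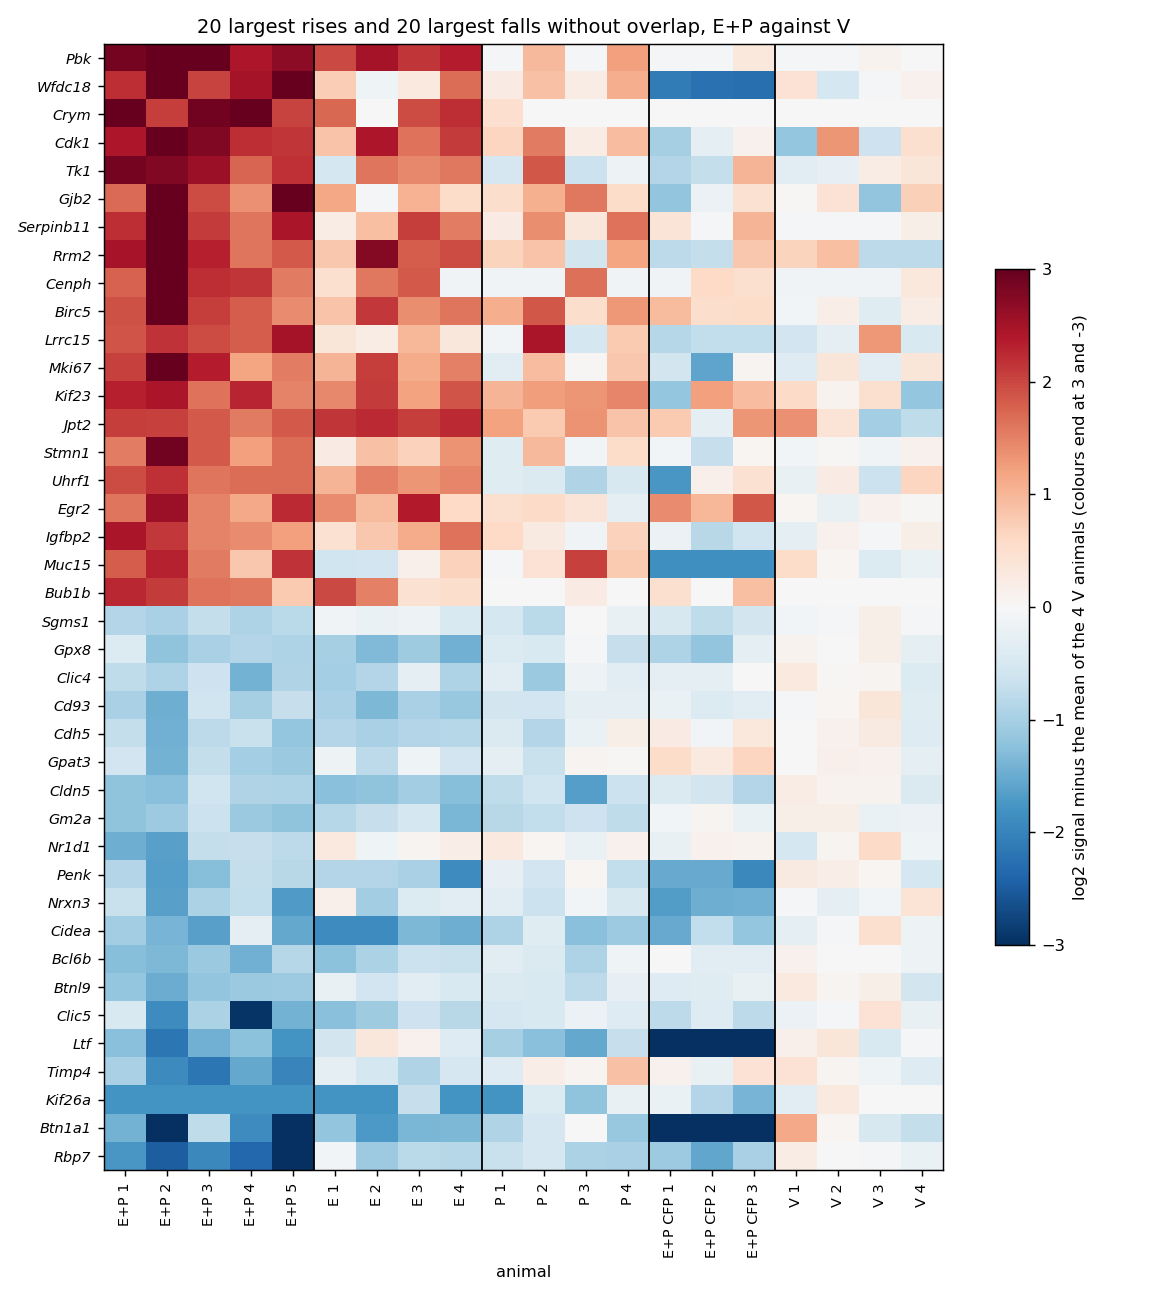
Log2 signal minus the mean of the 4 V animals (colour scale, blue lower and red higher) for the 20 largest rises and 20 largest falls of E+P against V among called genes whose groups did not overlap (rows) in all 20 animals (columns, grouped as E+P, E, P, E+P CFP and V). The E+P columns are red in the upper rows and blue in the lower ones, and the fat pads are blue for Wfdc18, Muc15, Ltf and Btn1a1.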

How the data were processed

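The deposited files hold 1 signal intensity per probe set and array on a linear scale, which the authors made with MAS5, as named in the submitters' processing notes; the software version is not given in the sources used here. RNA was extracted with Ultraspec and biotin-labelled from 2 µg, per the labels' protocols. The 3 arrays of a group and replicate number were joined as 1 animal. Samples were grouped by title. Of 36899 probe sets 198 were controls; 29131 had 1 gene symbol in the platform annotation, 724 several and 6846 none, and only the first kind was named (29044 found by gene number in the RefSeq table). Depth does not apply to arrays, and the number of animals limits precision. A limma p-value sets a group difference against the spread within groups. That spread was estimated over all 5 groups and moderated by intensity.

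Each array was scaled to the common 2% trimmed mean of its type, floored at the 25th percentile and turned to log2. Probe sets above the 50th percentile (61.6, 85.7 and 62.1 for A, B and C) in at least 3 animals were tested: 7224, 7719 and 8112. limma 3.58.1 in R 4.3.3 fitted 5 group means, letting the prior variance follow intensity, separately per array type. The RNA quality ratio was tested by exact permutation, two-sided. Each gene was represented by 1 probe set, preferring array type A to B and B to C, then probe sets with a plain suffix, then the brightest. Named were, of called genes whose groups did not overlap, the 20 with the largest rise and the 20 with the largest fall; all called members of 30 lists with the 2 next members of each; and a fixed set; the other 34 called genes were added after their values were seen. Not every next member of a list is printed above. Some uncalled members outside the rule are given as well: Top2a, Plk1, Epcam, Pecam1, Kdr, Tie1, Plvap and Lep. The members, lists and markers were chosen with earlier results of these data known. The method was tested on simulated data.

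Deviations of same-numbered E+P and V animals correlated at -0.12 to 0.20, and the numbers were taken as names. The E, P and E+P CFP animals were not checked in this way. Animals with unlike numbers were not compared, and a batch shared by number was not tested. Alternatives were other scalings, floors, filters and variance models, fits restricted to 2 groups, the replicate block and leaving out each animal; covariates, subsets of array type C and the removal of V 4 with E+P 2 were added after seeing the data.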

Additional observations from a re-analysis of the deposited data

Results flagged for a closer look

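Dixon's test was applied to 316 groups of 4 or 5 animals, and in 26 (8.23%) the highest or lowest animal stood apart from the others; chance gives about 1 in 20. All values are log2 signals unless named as sums.

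Animal V 4 stood apart in several measures. Its lymphocyte and plasma cell score was 1.22, against -1.31 to -1.19 in the other V glands, and its summed lymphocyte markers 1084, against 232 to 294. Its summed endothelial markers were 1095, against 1519 to 1566. V 4 was low for Cldn5 (8.18), Tpm2 (4.45), Ncam1 (3.75, the floor), Adipoq (13.02) and Esr1 (9.11), and high for Serpinb11 (5.07) and Cenph (5.24), whose other V glands were at the floor. With the others raised to 1 value, any signal above the floor is counted as apart, so these 2 of the 26 follow from the floor.

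V 3 stood apart for Lrrc15 (7.92) and Sgms1 (9.25), both high, and for Rflnb (9.98), low. V 2 was high for Cxcl9 (8.34) and for the summed epidermal markers (485, against 101 to 120.3), and V 1 was high for Nfix (9.21).

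Among the E+P glands, E+P 2 was low for Btnl9 (8.85), Gpam (9.27), Gpr146 (8.69) and Tent5a (8.47). E+P 3 was high for Gm2a (8.97) and E+P 4 for Ncam1 (6.19). E+P 5 was high for Tnnc2 (6.63), Cdkn1a (7.0) and the summed skeletal muscle markers (489, against 166 to 206), and low for Cox8b (6.84).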

How the results depend on the processing

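The number of probe sets called between E+P and V depended on the model more than on the scaling. It was 53 (36 higher, 17 lower) with no filter, 69 (22 lower) without the intensity trend, 208 (105 higher, 103 lower) with array weights and 44 (30 higher, 14 lower) with only the groups compared. With the replicate block it was 46 (30 higher, 16 lower). The numbers were not taken as pairs, on the correlations of same-numbered E+P and V animals alone. The other groups were not checked for this, and a batch shared by number was not tested. Leaving out 1 animal gave 33 to 133 calls, 22 to 77 higher and 10 to 67 lower: 33 without E+P 2, 65 without E+P 3, 52 without E+P 5, 67 without V 1, 44 without V 2, 34 without V 3 and 133 without V 4. In alternatives chosen after seeing the data, it was 61 (29 higher, 32 lower) without V 4 and E+P 2, 124 with the lymphocyte score in the fit, 145 with the Gapdh ratio and 107 without the 6 type C arrays. Against E the count was 50 with the floor at the 40th percentile, 16 with no filter, 73 with array weights, 10 with only the groups compared, 2 with the replicate block and 11 to 37 with 1 animal left out. Against P it was 55 with median scaling, 52 with no filter, 55 without the trend, 25 with only the groups compared, 33 with the replicate block and 19 to 100 with 1 animal left out. Against the fat pads it was 1091 to 1777 with 1 animal left out. No named gene reversed under any alternative run. Of the 81 called genes, 20 passed with any 1 E+P or V animal left out, and 17 of these also passed under every other planned setting in which they were tested. With the replicate block 31 passed, without V 4 60, and with the lymphocyte score 79, all but Sox7 and Cyb5b. The causes of these shifts were not tested. Signals at the floor limit the differences of Crym, Bub1b, Kif26a, Pbk, Cdk1, Serpinb11, Cenph, Gjb2, Kif23, Rrm2, Etv5 and Clic5 to bounds.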
